A study of Mus musculus with 10 samples.

Results

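The genes described here are 10 mouse genes that encode receptors and entry factors used by adeno-associated virus (AAV), out of 57010 genes in the deposited count table. They were chosen by name, from what is known of AAV entry, with earlier results of these data already known. All 10 were matched to a row by their GENCODE M21 symbol and passed the filter on low counts. RNA was measured in retinas of 10 mice that were 6 to 8 weeks old, 14 days after a vector was placed in the vitreous. In 5 mice the injected vector was AAV2-GFP and in 5 it was AAV206-GFP, so both groups had received an AAV carrying green fluorescent protein (GFP) and differed in the capsid. Strain, sex, vector dose and GFP promoter are not given in the sources used here, and neither are the receptors that AAV206 uses. No uninjected retina was analysed, so every difference is between the vectors. The labels number the mice within a group and do not say whether a sample pooled tissue from both eyes.

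An AAV particle first binds sugar chains or proteins on the cell surface, is taken into endosomes, travels back to the Golgi apparatus and then enters the nucleus. AAV2 attaches through heparan sulfate, a sulfated sugar chain carried by surface proteins, and several surface proteins have been described as its co-receptors. The AAV receptor (AAVR, encoded in the mouse by AU040320) and the Golgi protein GPR108 are host factors that many serotypes need after attachment. In the retina a vector placed in the vitreous reaches the ganglion cell side first, and photoreceptors and the retinal pigment epithelium (RPE) lie behind the inner layers.

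The libraries held 10989843 to 12752604 counts each. CPM denotes the count scaled to the library size. The tissue label was checked on photoreceptor genes, with a summed level of 4 rod markers (Gnat1, Pde6b, Nrl and Sag) between 16604 and 19289 CPM in all 10 libraries. The summed level of 5 RPE markers was 10.4 to 35.5 CPM with AAV2-GFP and 13.3 to 20.5 CPM with AAV206-GFP, so the samples held little RPE RNA. AAV2-GFP mouse 1 stood apart in microglia and macrophage markers, whose sum over 6 genes reached 174 CPM, while the other 9 libraries lay between 17.6 and 38.6 CPM. In 6 interferon response genes AAV2-GFP mice 1 and 4 stood at 420 and 553 CPM, and the other 8 libraries lay between 79.1 and 140 CPM. For the members and the further genes called with all mice, results are therefore also given without these mice where that changed a call. Marker genes, neighbouring genes and correlations are given with all mice only, so their dependence on these mice is not shown. In whole tissue, fewer cells of a type and less RNA per cell cannot be told apart.

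AU040320 (ENSMUSG00000028830, chr4:126753544-126870070 on the plus strand of GRCm38), which encodes AAVR, was the member that changed. It stood at 64.7, 79.2, 61.2, 71.5 and 66.8 CPM in AAV2-GFP mice 1 to 5, and at 74.7, 93.0, 85.2, 83.1 and 96.2 CPM in AAV206-GFP mice 1 to 5. The groups overlapped only through AAV206-GFP mouse 1, which lay below AAV2-GFP mouse 2, while the other 4 AAV206-GFP mice were above every AAV2-GFP mouse. The mean was 68.7 ± 6.98 CPM in the former and 86.4 ± 8.49 CPM in the latter (SD, n = 5). The level was 25.8% higher with AAV206-GFP, which is 0.33 on the log2 scale (log2FC, the log2 fold change of AAV206-GFP over AAV2-GFP), with a standard error of 0.08 and a 95% interval from 0.16 to 0.51 (edgeR adjusted p = 0.0175, adjusted over all 15539 tested genes). Without AAV206-GFP mouse 2 the log2FC was 0.30 and the adjusted p was 0.0538. Without AAV2-GFP mice 1 and 4 it was 0.32 with an adjusted p of 0.0734, so the call was lost in both settings while the size of the difference moved little.

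The DNA in front of AU040320 is shown because this gene carried the called change and shares the stretch with a neighbour. Ncdn, a neuronal gene, begins on the minus strand, and 105 bases lie between the start annotated for Ncdn and that of AU040320. This stretch, chr4:126753439-126753543 of GRCm38.p6 as given by RefSeq, is printed 5′ to 3′ on the strand of AU040320, with the CCAAT motif in capitals.
AU040320 upstream: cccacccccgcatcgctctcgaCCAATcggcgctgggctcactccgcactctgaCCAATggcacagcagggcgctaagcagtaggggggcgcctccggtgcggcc
The CCAAT motif, known as the binding site of the factor NF-Y, was found at 2 places on the plus strand, starting 83 and 51 bases before the AU040320 start. G and C made up 70.5% of these bases. Of the 32851 promoter windows of 300 bases in the RefSeq table, 37.4% held CCAAT on either strand, 35.7% held the GC box GGGCGG, 7.15% the E-box CACGTG and 13.6% the TATA box TATAAA. Of the members, 7 had windows (9 in all, as AU040320 and Gpr108 had 2 each), and 6 windows held the GC box, 4 held CCAAT, 1 held the E-box and 0 held TATAAA. Ext1, Ndst1 and Fgfr1 were not matched. For AU040320, both CCAAT sites lie in window 1, while window 2 (chr4:126753520-126753819) held 0 CCAAT and 2 GC boxes. Ncdn did not pass the threshold, with 203 ± 17.6 CPM under AAV2-GFP and 185 ± 6.21 CPM under AAV206-GFP (SD, n = 5; log2FC -0.14, edgeR adjusted p = 0.181).

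At its other end AU040320 shares 67 exonic bases, 1.07% of its exons, with Zmym4 on the opposite strand. The strand setting of the counting is not given in the sources used here, so reads in those bases could belong to either gene. Zmym4 stood at 104 ± 7.88 CPM and 121 ± 12.0 CPM (SD, n = 5), a log2FC of 0.22 that did not pass (edgeR adjusted p = 0.0653). All AU040320 counts were whole numbers, from 716 to 1134 per library.

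**Figure D1:**
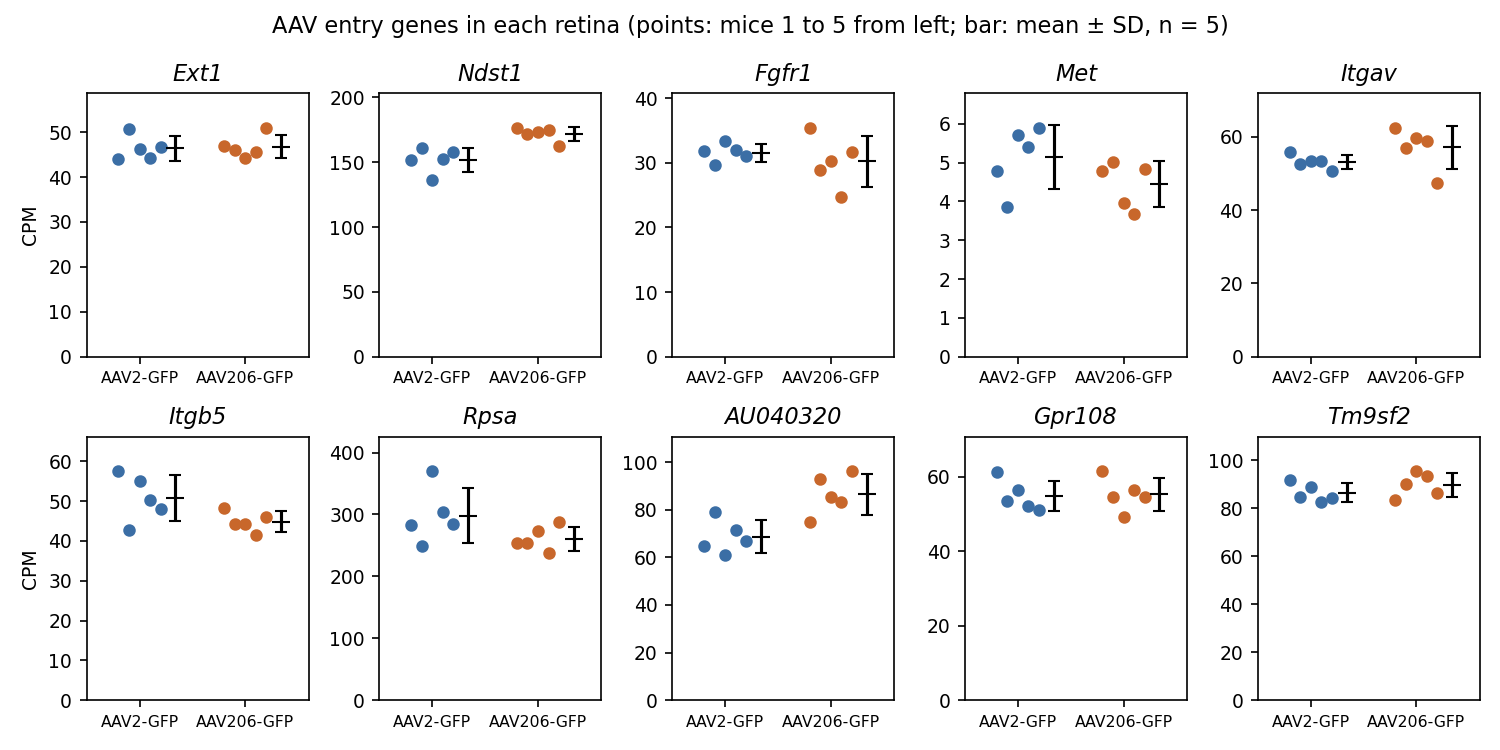
Expression of the 10 entry genes in each retina, in CPM with every axis starting at 0. Points are mice 1 to 5 from left to right, and the bar beside them is the mean ± SD (n = 5). With AAV206-GFP, 5 of 5 Ndst1 points and 4 of 5 points of AU040320 and of Itgav lie above every AAV2-GFP point, while the fifth Itgav point lies below them all.

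Over the 10 members, 1 passed the threshold as higher with AAV206-GFP and 0 as lower. The share of all tested genes past the threshold was 11.2% in either direction, with 5.95% higher and 5.3% lower, so 1 of 10 is near the background. At an unadjusted edgeR p under 0.05 there were 4 members, AU040320, Ndst1, Itgb5 and Rpsa, where 28% of all tested genes reached that level. Without AAV2-GFP mice 1 and 4 there were 2, AU040320 and Ndst1, against 23.1% of all tested genes, and leaving out single mice gave 2 to 4. The median log2FC was 0.01 over the members and -0.0095 over all tested genes.

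Among the members that act in attachment, Ndst1 (ENSMUSG00000054008, chr18:60684494-60748650, minus strand) encodes the enzyme that replaces acetyl by sulfate groups on heparan sulfate, the first modification of the chain. It stood at 152, 161, 136, 153 and 158 CPM in AAV2-GFP mice 1 to 5 and at 177, 172, 174, 175 and 163 CPM in AAV206-GFP mice 1 to 5. Every AAV206-GFP mouse was above every AAV2-GFP mouse, the closest pair being AAV206-GFP mouse 5 and AAV2-GFP mouse 2. Absence of overlap was found in 9.78% of all tested genes and in 1 of the 10 members. The means were 152 ± 9.49 and 172 ± 5.42 CPM (SD, n = 5), a log2FC of 0.18 ± 0.06 (standard error) that just missed the threshold (edgeR adjusted p = 0.0587). It passed with upper-quartile scaling (adjusted p = 0.0486) and in DESeq2 (adjusted p = 0.0231), and in 0 of the 10 leave-one-out fits with edgeR.

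Ext1 (ENSMUSG00000061731, chr15:53064038-53346159, minus strand) encodes a subunit of the polymerase that extends the heparan sulfate chain. Its level was 43.9, 50.7, 46.2, 44.3 and 46.6 CPM with AAV2-GFP and 46.9, 46.0, 44.3, 45.5 and 51.0 CPM with AAV206-GFP, in mouse order. The groups covered almost the same range, and the 95% interval of the log2FC ran from -0.13 to 0.15 around 0.01. In percent, the interval ran from -8.42% to 11.0%.

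Among the protein co-receptors, the integrin subunits Itgav and Itgb5 together form integrin alpha V beta 5, described as a co-receptor for internalization of AAV2. Itgav (ENSMUSG00000027087, chr2:83724397-83806916, plus strand) stood at 56.0, 52.5, 53.4, 53.5 and 50.7 CPM with AAV2-GFP and at 62.4, 56.9, 59.8, 58.9 and 47.3 CPM with AAV206-GFP. AAV206-GFP mice 1 to 4 were above all AAV2-GFP mice, whereas mouse 5 was below all of them. The log2FC was 0.10 with a 95% interval from -0.05 to 0.26 (edgeR adjusted p = 0.385). Without AAV206-GFP mouse 5 it was 0.16 (unadjusted p = 0.0168, edgeR adjusted p = 0.0931), and without AAV206-GFP mouse 1 it was 0.07, so single mice moved it by more than 1.5 times.

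Itgb5 (ENSMUSG00000022817, chr16:33829665-33949338, plus strand) stood at 57.5, 42.8, 55.1, 50.3 and 48.1 CPM with AAV2-GFP and at 48.4, 44.2, 44.2, 41.5 and 46.0 CPM with AAV206-GFP. Its spread was wider in AAV2-GFP, where the coefficient of variation was 11.4% against 5.63%, and its highest value was in AAV2-GFP mouse 1, the mouse with the high microglia and macrophage markers. The log2FC was -0.18 with a 95% interval from -0.35 to -0.01 (unadjusted p = 0.0416, edgeR adjusted p = 0.160). Without AAV2-GFP mice 1 and 4 it was -0.12 (unadjusted p = 0.198). Whether immune cells contributed to the Itgb5 level was not tested.

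Per length, Itgav was at 0.322, 0.405, 0.320, 0.351 and 0.348 of the level of Itgb5 in AAV2-GFP mice 1 to 5. In AAV206-GFP mice 1 to 5 this ratio was 0.427, 0.425, 0.447, 0.469 and 0.340. The beta 5 subunit RNA was thus the more abundant in all 10 retinas, and AAV206-GFP mouse 5 was the library that lay within the AAV2-GFP range. This ratio was formed after the values were seen and was not tested.

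Fgfr1 (ENSMUSG00000031565, chr8:25513654-25575718, plus strand) encodes a fibroblast growth factor receptor described as an AAV2 co-receptor. It stood at 31.8, 29.6, 33.4, 32.0 and 31.0 CPM with AAV2-GFP and at 35.4, 28.9, 30.4, 24.7 and 31.7 CPM with AAV206-GFP. The AAV206-GFP mice held both the highest and the lowest value, and the log2FC was -0.06 (95% interval -0.25 to 0.13, edgeR adjusted p = 0.681).

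Met (ENSMUSG00000009376, chr6:17463800-17573980, plus strand), the receptor of hepatocyte growth factor and another described AAV2 co-receptor, was the member with the fewest reads, 41 to 74 counts per library. It stood at 4.79, 3.86, 5.72, 5.40 and 5.90 CPM with AAV2-GFP and at 4.80, 5.02, 3.97, 3.68 and 4.83 CPM with AAV206-GFP. The ranges overlapped, and the 95% interval of its log2FC was the widest of the members, from -0.58 to 0.17 around -0.21 (edgeR adjusted p = 0.479). In percent, the interval ran from -33.2% to 12.6%.

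Rpsa (ENSMUSG00000032518, chr9:120127689-120132369, plus strand) encodes a protein of the small ribosomal subunit that also acts at the cell surface as a laminin receptor, in which role it has been described for several AAV serotypes. It stood at 283, 249, 370, 304 and 284 CPM with AAV2-GFP and at 254, 254, 273, 237 and 287 CPM with AAV206-GFP. AAV2-GFP mouse 3 was the highest, and the AAV206-GFP mice lay in the lower part of the AAV2-GFP range or just under it. The log2FC was -0.19 with a 95% interval from -0.38 to -0.0037 (unadjusted p = 0.0461, edgeR adjusted p = 0.170), and -0.10 without AAV2-GFP mouse 3. Without AAV2-GFP mice 1 and 4 it was -0.21 (unadjusted p = 0.0591). Decimals in 3 libraries show that some of its reads were divided with other genes, so its level is uncertain.

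Besides AU040320, the trafficking members did not pass and had differences near 0. GPR108 acts in the Golgi after uptake of the particle. Gpr108 (ENSMUSG00000005823, chr17:57234635-57248446, minus strand) stood at 61.1, 53.4, 56.3, 52.2 and 50.9 CPM with AAV2-GFP and at 61.4, 54.5, 49.2, 56.4 and 54.5 CPM with AAV206-GFP. The groups covered nearly the same range, with a log2FC of 0.01 (95% interval -0.14 to 0.17, edgeR adjusted p = 0.941).

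Tm9sf2 (ENSMUSG00000025544, chr14:122107038-122159604, plus strand) encodes a membrane protein of the Golgi and endosomes that cells need to make fully sulfated heparan sulfate. It stood at 91.8, 84.8, 88.9, 82.4 and 84.0 CPM with AAV2-GFP and at 83.4, 89.9, 95.3, 93.5 and 86.1 CPM with AAV206-GFP. AAV206-GFP mice 3 and 4 were above the AAV2-GFP range and the others within it, for a log2FC of 0.05 (95% interval -0.07 to 0.18, edgeR adjusted p = 0.593).

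**Figure D2:**
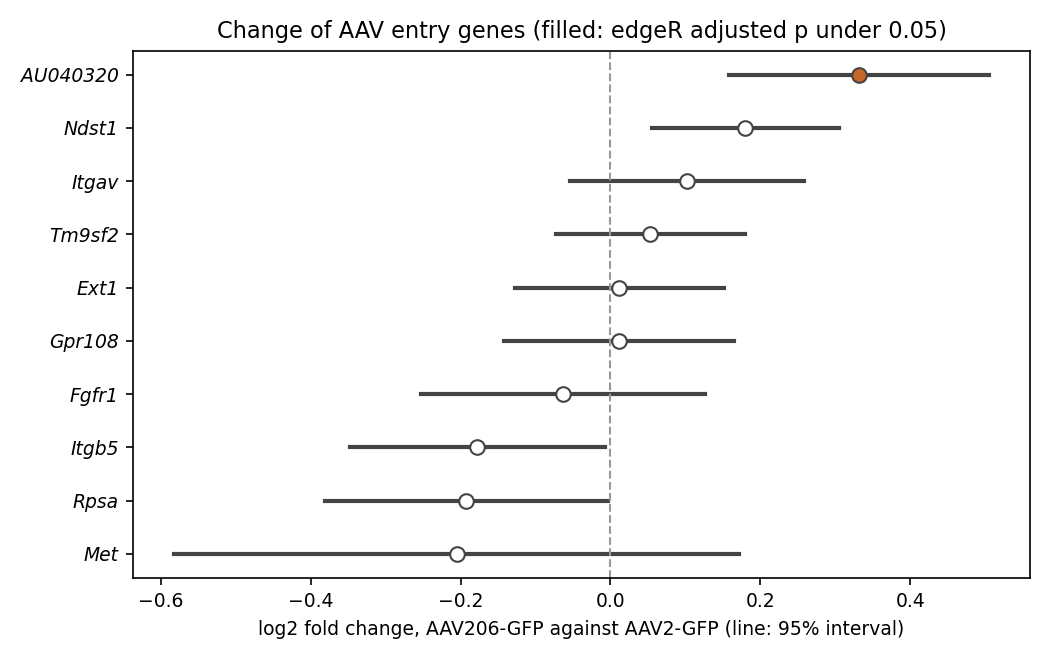
Log2 fold change of each entry gene, AAV206-GFP against AAV2-GFP, with its 95% interval as a line. The filled point is AU040320 at 0.33, the member past the threshold, and open points are the 9 members that did not pass.

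The members differed far more from each other than between the vectors. Levels of different genes are compared per length, as CPM per kilobase of the union of annotated exons, averaged over the 10 libraries. Rpsa was the most abundant at 88.2 ± 11.9 CPM per kilobase (SD over 10 libraries), above 98.2% of the 15288 tested genes with a length. Tm9sf2 followed at 28.3 ± 1.46, and then Ndst1 at 19.5 ± 1.56 and Gpr108 at 19.2 ± 1.40 CPM per kilobase. Ndst1 was above Gpr108 in only 7 of the 10 libraries, so these neighbours were not separated.

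In the middle of the order stood Itgb5 at 13.5 ± 1.47 and AU040320 at 12.4 ± 1.90 CPM per kilobase. Itgb5 was above AU040320 in 4 of 5 AAV2-GFP libraries and in 1 of 5 AAV206-GFP libraries. With AAV2-GFP the means were 14.3 for Itgb5 and 11.0 for AU040320, and with AAV206-GFP they were 12.6 and 13.8 CPM per kilobase.

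The remaining members were lower. Ext1 stood at 5.76 ± 0.31, Itgav at 5.13 ± 0.42, Fgfr1 at 3.13 ± 0.29 and Met at 0.625 ± 0.10 CPM per kilobase. Ext1 was above Itgav in 9 of 10 libraries, and each of the other steps in this lower part held in 10 of 10. Met was above only 9.90% of the tested genes. With the length of the longest transcript instead, AU040320 came before Itgb5, and Itgav and Fgfr1 came before Ext1, so the order of these genes depends on the length used.

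**Figure D3:**
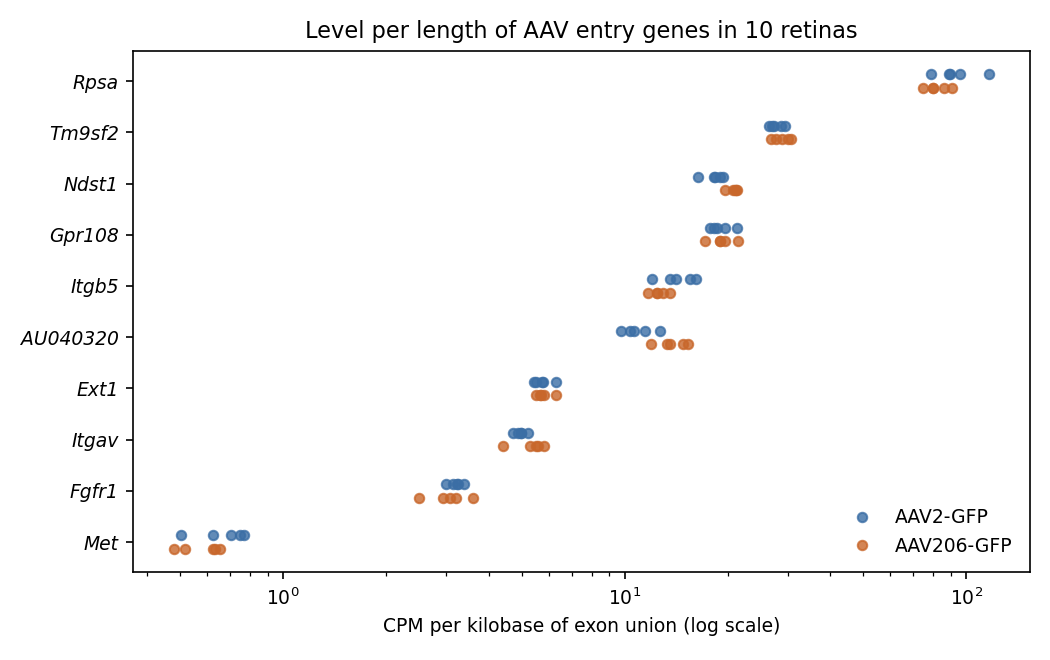
Level of each entry gene per kilobase of exon in each of the 10 retinas, on a log axis. Rpsa at the top and Met at the bottom stand apart, while Ndst1 with Gpr108 and Itgb5 with AU040320 overlap.

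AU040320 was set beside the summed markers of 13 lists, and markers of several cell types moved with it or with the vector. The sum of 4 cone markers was 641 to 704 CPM with AAV2-GFP and 710 to 733 CPM with AAV206-GFP, so the groups did not overlap. Pearson's r between this sum and AU040320, on log2(CPM + 1) over the 10 libraries, was 0.92, and 0.77 after removal of the group means. Of the 4 cone markers 1 passed as higher, Gnat2, the cone transducin, with a log2FC of 0.24 (edgeR adjusted p = 0.0123). Only for Gnat2 did the groups not overlap. Opn1sw, Pde6h and Arr3 overlapped between the groups and did not pass, with log2FC of 0.06, 0.09 and 0.11.

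The sum of the 4 rod markers was 18264 to 19289 CPM with AAV2-GFP and 16604 to 19151 CPM with AAV206-GFP. Of these markers 0 passed with edgeR, and 1 had an unadjusted p under 0.05, the rod transducin Gnat1, with a log2FC of -0.15 (edgeR adjusted p = 0.0612). With DESeq2 Gnat1 passed (adjusted p = 0.0404), as the only one of the 4, and with limma-voom 0 passed. Pearson's r of the rod sum with AU040320 was -0.25 over the 10 libraries and 0.65 after removal of the group means, so its sign differed between the pooled and the centred values.

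**Figure D4:**
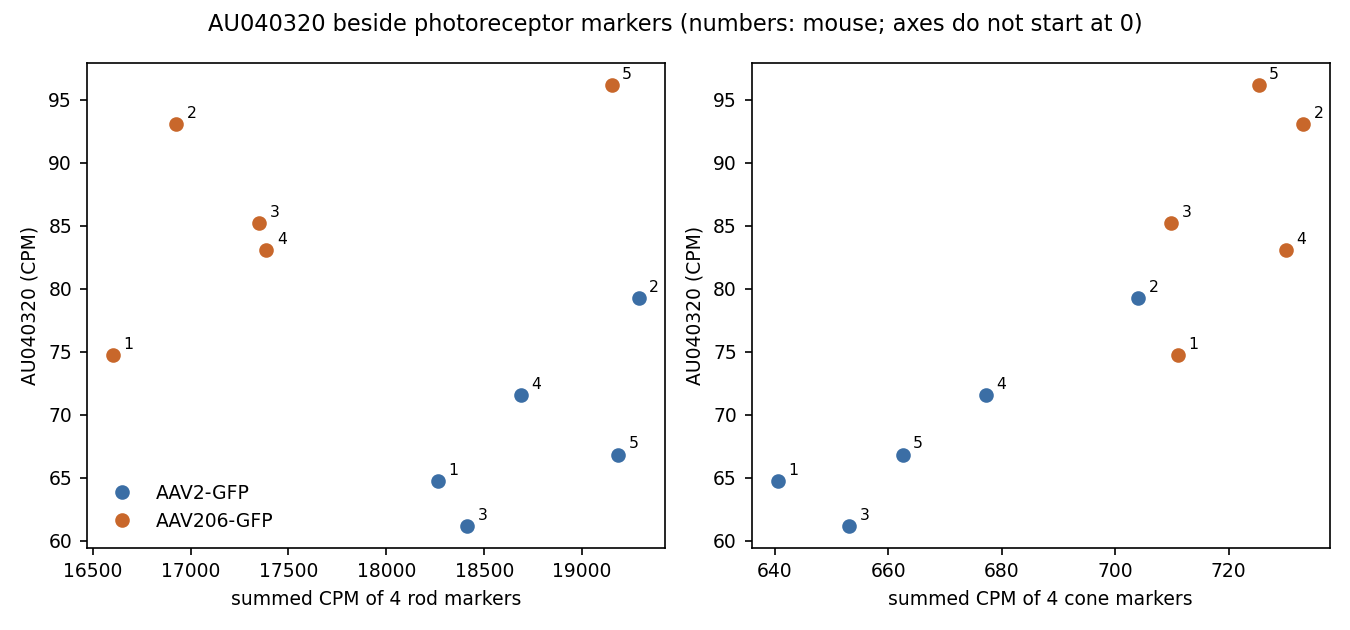
AU040320 in CPM against the summed CPM of 4 rod markers (left) and 4 cone markers (right), 1 point per retina with its mouse number. The AAV206-GFP retinas lie to the right of the AAV2-GFP retinas for the cone markers, and for the rod markers all but mouse 5 lie to the left. Gnat1 makes up most of the rod sum.

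Lens and RPE markers ran the opposite way to AU040320. The sum of 4 lens markers was 6.65 to 24.0 CPM with AAV2-GFP and 0.172 to 7.82 CPM with AAV206-GFP, with Lim2 at 0 in all libraries, and r with AU040320 was -0.87, or -0.64 after removal of the group means. The lens crystallin Cryaa, the only lens marker tested, passed as lower (log2FC -2.50, edgeR adjusted p = 0.0288). For the RPE sum r was -0.76, or -0.64 after removal of the group means, and 1 of 4 tested RPE markers passed as lower, Rgr (log2FC -0.79, edgeR adjusted p = 0.0328).

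All 3 erythrocyte markers passed as higher with AAV206-GFP, and their sum was 45.9 to 56.1 CPM with AAV2-GFP and 67.9 to 219.8 CPM with AAV206-GFP. The log2FC was 1.32 for Hba-a1, 1.28 for Hbb-bs and 2.03 for Alas2 (edgeR adjusted p = 0.00550, 0.00425 and 0.0110). The erythrocyte sum had an r of 0.48 with AU040320, or -0.37 after removal of the group means. Other lists also held called markers, all lower with AAV206-GFP in edgeR. Bipolar Grm6 had a log2FC of -0.66 (edgeR adjusted p = 0.00225) and ganglion cell Pou4f1 -0.37 (adjusted p = 0.00623). Endothelial Cldn5 had -0.64 (adjusted p = 0.0192) and microglial C1qa -2.22 (adjusted p = 0.0326). Grm6, Pou4f1, Cldn5 and C1qa were each the only one called on their list. In contrast 4 of 5 tested interferon response genes passed, whose sum was highest in AAV2-GFP mice 1 and 4. Over the 9 lists other than cone, rod, lens and RPE, r with AU040320 lay between -0.66 and 0.48. These relations were picked after the values were seen, the libraries share their group difference, and the part of any cell type's content in the AU040320 difference was not tested.

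Among all tested genes, the 3 whose log2(CPM + 1) followed AU040320 most closely over the 10 libraries were Pcdhga1, a clustered protocadherin (r = 0.94), Vps53 (r = 0.94) and Eps8, an actin regulator (r = 0.94). Vps53 encodes a subunit of the GARP complex, which tethers vesicles that return from endosomes to the Golgi. Its level was 64.9 ± 2.32 and 71.0 ± 3.90 CPM (SD, n = 5), a log2FC of 0.13 that did not pass (edgeR adjusted p = 0.168). Pcdhga1 rose by 0.59 (edgeR adjusted p = 0.00323) and Eps8 by 0.19 (edgeR adjusted p = 0.0481) on the log2 scale. The Pcdhga1 counts carried decimals in all 10 libraries, as its reads are divided with other genes. With the group means removed, r was 0.84, 0.86 and 0.82. The 3 genes were picked by r before that removal, as the highest of many values over few libraries.

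Beyond the members, 109 further genes of heparan sulfate synthesis, surface binding, transport and nuclear steps were listed, and 103 of them were tested. Of these, 10 passed, 3 higher and 7 lower with AAV206-GFP, which is 9.71% against the background of 11.2%. The median log2FC over the 103 genes was -0.01. Groups did not overlap in 12 of the 103 genes, and in 9.78% of all tested genes.

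The called heparan sulfate genes were all on the list of modifying enzymes. Of 14 linker and chain genes 0 passed with edgeR, and the smallest p was that of B3gat3, which completes the linker sugar (log2FC -0.28, adjusted p = 0.0740). B3gat3 also had the highest level per length on that list, 24.5 ± 3.96 CPM per kilobase (SD over 10 libraries). Of 11 tested core proteins 0 passed, with the smallest p for Col18a1 (log2FC 0.47, edgeR adjusted p = 0.0668) and the highest level for the syndecan Sdc3, 33.4 ± 2.24 CPM per kilobase.

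Of 17 tested modification genes 3 passed, all lower with AAV206-GFP. That is 17.6% against 11.2% of all tested genes, on few genes, and the list was not tested as a set. Sulf1, an extracellular enzyme that removes 6-O-sulfate groups from heparan sulfate, stood at 68.0, 56.5, 62.5, 59.2 and 59.0 CPM with AAV2-GFP and at 41.1, 41.3, 44.4, 41.7 and 43.8 CPM with AAV206-GFP. The groups were far apart, with a log2FC of -0.52 ± 0.07 (standard error) (edgeR adjusted p = 0.000128), and it passed under every alternative run. Hs6st1, which adds 6-O-sulfate, fell from 62.1 ± 4.44 CPM in AAV2-GFP to 52.0 ± 4.83 CPM in AAV206-GFP mice (SD, n = 5), by log2FC -0.26 (edgeR adjusted p = 0.0378), and passed in only 3 of the 10 leave-one-out fits. Those were the fits without AAV2-GFP mouse 1, AAV2-GFP mouse 3 or AAV206-GFP mouse 5, and its adjusted p was 0.113 without AAV2-GFP mouse 4 and 0.139 without AAV2-GFP mice 1 and 4. Hs3st3b1, which adds 3-O-sulfate, fell from 163 ± 8.74 CPM in AAV2-GFP to 138 ± 9.45 CPM in AAV206-GFP mice, by log2FC -0.25 (edgeR adjusted p = 0.0202), and had the highest level per length on the list, 30.7 ± 3.27 CPM per kilobase. Its counts carried decimals in all 10 libraries, and its adjusted p was 0.0505, 0.0545 and 0.0581 without AAV2-GFP mouse 5, AAV206-GFP mouse 2 and AAV206-GFP mouse 3, where the log2FC was -0.23, -0.24 and -0.22.

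Of 16 tested genes on the list of other surface receptors, which also holds the Met ligand Hgf, 2 passed and both were higher. This share of 12.5% is near the 11.2% of all tested genes. Among the 16 are receptors described for other AAV serotypes or engineered capsids. Tfrc, the transferrin receptor, stood at 148, 156, 158, 175 and 152 CPM with AAV2-GFP and at 196, 210, 219, 224 and 192 CPM with AAV206-GFP. The groups did not overlap, with a log2FC of 0.40 ± 0.06 (standard error) (edgeR adjusted p = 0.00115), and Tfrc also had the highest level per length on its list, 29.6 ± 4.68 CPM per kilobase. Egfr, the epidermal growth factor receptor described for AAV6, stood at 17.0, 14.2, 16.6, 16.0 and 13.8 CPM and at 20.6, 19.2, 19.8, 27.1 and 19.4 CPM. AAV206-GFP mouse 4 was well above its group, and the log2FC was 0.45 with all mice (edgeR adjusted p = 0.0198) and 0.35 without that mouse (adjusted p = 0.0492).

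Of 31 transport genes between endosome and Golgi 2 passed, both lower, a share of 6.45% against 11.2% of all tested genes. Clta, a clathrin light chain, fell from 145 ± 17.5 CPM in AAV2-GFP to 113 ± 9.43 CPM in AAV206-GFP mice (SD, n = 5), by log2FC -0.35 (edgeR adjusted p = 0.0133). Atp2c1, the Golgi calcium and manganese pump, fell from 187 ± 7.32 CPM in AAV2-GFP to 147 ± 10.4 CPM in AAV206-GFP mice, by log2FC -0.34 (edgeR adjusted p = 0.00219), with decimals in all 10 libraries. In both genes the groups did not overlap. The same held for Vps29 and Rab6a, which did not pass, so for 4 of the 31 genes. Dnm1, the neuronal dynamin, had the highest level per length, 144 ± 7.97 CPM per kilobase, and a log2FC of -0.03 (edgeR adjusted p = 0.770).

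The nearest relatives of the trafficking members did not pass. Gpr107, the relative of Gpr108, stood at 71.2 ± 4.71 and 81.4 ± 3.20 CPM (SD, n = 5) with no overlap between the groups, a log2FC of 0.19 (edgeR adjusted p = 0.0531). Of the 3 relatives of Tm9sf2, 0 passed with edgeR and Tm9sf3 had both the smallest p (log2FC 0.17, adjusted p = 0.0951) and the highest level, 23.3 ± 1.97 CPM per kilobase.

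Of 10 genes listed for nuclear entry and handling of the vector genome, with the lysosomal proteases Ctsb and Ctsl among them, 3 passed. This share is 30% against 11.2% of all tested genes, on few genes, and the list was not tested as a set. Mre11a, a subunit of the DNA repair complex that acts against AAV genomes, rose from 27.0 ± 3.82 CPM in AAV2-GFP to 36.6 ± 2.92 CPM in AAV206-GFP mice (SD, n = 5), by log2FC 0.44 (edgeR adjusted p = 0.00970). Fkbp4, whose protein binds the single-stranded AAV genome end, fell from 239 ± 29.7 CPM in AAV2-GFP to 177 ± 17.7 CPM in AAV206-GFP mice, by log2FC -0.43 (edgeR adjusted p = 0.00526). Ctsb, the lysosomal protease cathepsin B, fell from 429 ± 35.0 CPM in AAV2-GFP to 344 ± 22.5 CPM in AAV206-GFP mice, by log2FC -0.32 (edgeR adjusted p = 0.00684), with its highest value, 489 CPM, in AAV2-GFP mouse 1. Without AAV2-GFP mice 1 and 4 the log2FC was 0.36 for Mre11a (adjusted p = 0.0701) and -0.25 for Ctsb (adjusted p = 0.0516). Kpna2, an importin alpha, had the highest level per length at 114 ± 9.78 CPM per kilobase and did not pass (log2FC -0.10, edgeR adjusted p = 0.377). The Ctsb and Kpna2 counts carried decimals in all 10 libraries.

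**Figure D5:**
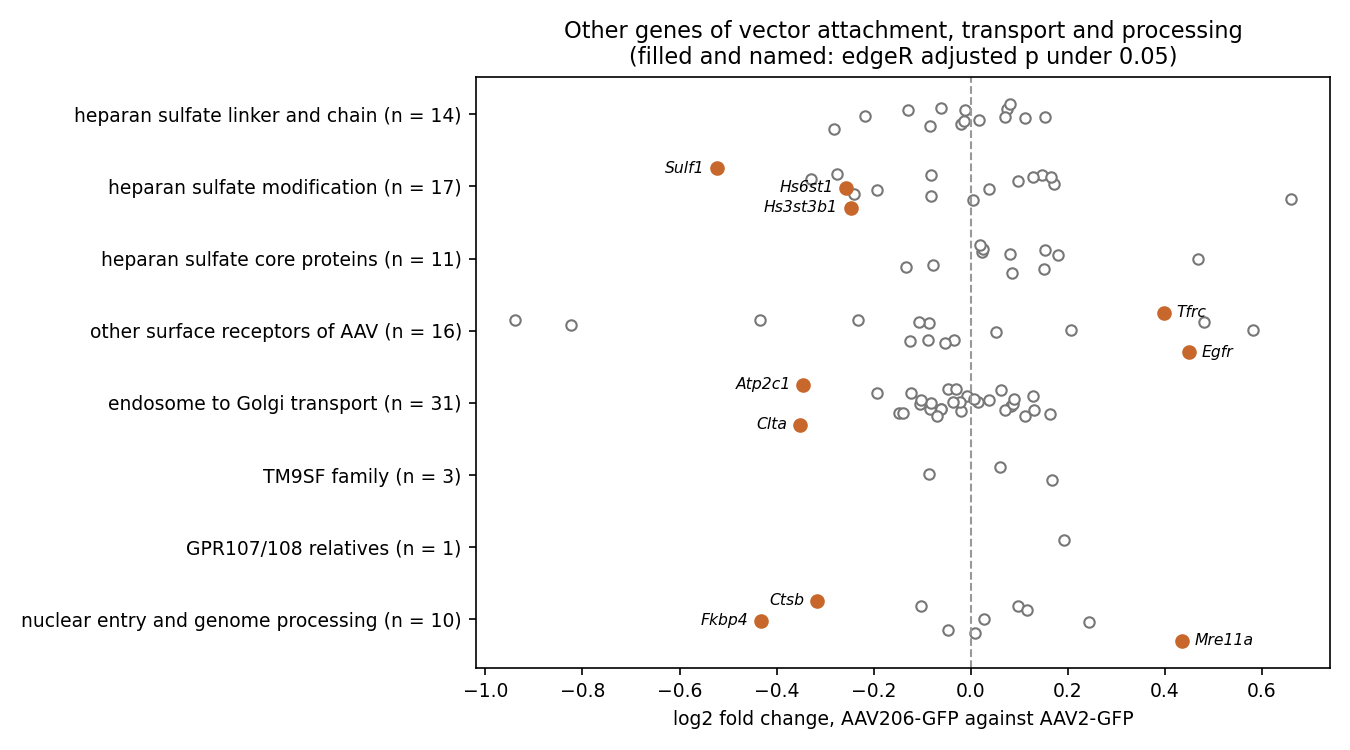
Log2 fold change, AAV206-GFP against AAV2-GFP, of the 103 tested further genes by list, with 1 point per gene and vertical scatter for legibility. The 10 named, filled points passed the threshold, and the heparan sulfate linker and core protein lists hold open points only.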

How the data were processed

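Bulk RNA-seq was analysed for 10 retinas, 5 per vector, grouped and numbered by title. Per the labels' protocols, libraries were made with the NEBNext Ultra RNA kit and read as pairs of 150 bases. The submitters' processing notes name STAR 2.7.10b, RSEM 1.3.1 and the build mm10. The authors deposited estimated counts per Ensembl gene, not scaled, of which 5.95% carried decimals. They were rounded, and edgeR 4.0.16 in R 4.3.3 was run on all 10 libraries with filterByExpr (minimum count 10), TMM scaling, a quasi-likelihood F test and Benjamini-Hochberg adjustment over 15539 genes (threshold 0.05). CPM use TMM-adjusted library sizes. Standard errors are the absolute log2 fold change over the square root of F. At this depth 3 counts equal 0.232 to 0.274 CPM, and this floor covers counting error only. Library pairs within groups differed beyond sampling noise (chi-square 3.61 to 21.3 per degree of freedom), so none was treated as a duplicate. The series' design gives 5 mice per group, and p-values measure the spread between these samples.

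Symbols, lengths and coordinates came from GENCODE M21 (GRCm38, the assembly of mm10). Members and lists were chosen with earlier results of these data known. All members are named; of each further list, the called genes and the gene with the highest level per length, or the gene with the smallest p where none passed, and the 3 genes most correlated with AU040320. Ncdn, Zmym4 and the marker genes given with values were named after their values were seen. A rod marker on the list is not reported here. Alternatives covered scaling, filters, DESeq2 1.42.0, limma-voom (limma 3.58.1), robust dispersions, unrounded counts, a replicate block and leaving out each library, and omission of AAV2-GFP mice 1 and 4 was added after the data were seen.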

Additional observations from a re-analysis of the deposited data

Results flagged for a closer look

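Egfr in AAV206-GFP mouse 4 was at 27.1 CPM, and the 4 remaining AAV206-GFP mice lay between 19.2 and 20.6 CPM. Its gap to the nearest mouse made up 0.816 of the range of the group, above Dixon's critical value of 0.71 for 5 samples. Of 40 such groups examined (20 genes with 2 vectors each), 1 was beyond that value, where chance alone would give about 2. The log2FC of Egfr without this mouse was 0.35 (edgeR adjusted p = 0.0492). None of the 10 entry genes had such a mouse in either group.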

How the results depend on the processing

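The direction of 7 members held under all 21 alternatives: AU040320, Ndst1, Itgav, Tm9sf2, Met, Itgb5 and Rpsa. AU040320 ranged from 0.29 to 0.39 on the log2 scale, with adjusted p from 0.00322 to 0.0734, and passed in 9 of the 10 leave-one-out fits and 10 of the other 11. The number of members called was 2 with upper-quartile scaling and with DESeq2, 0 to 1 when single libraries were left out, and 0 without AAV2-GFP mice 1 and 4. In that last setting Ext1 reversed to -0.0407. Leaving out single libraries moved Ext1 between -0.0196 and 0.0448, Gpr108 between -0.0302 and 0.0537 and Fgfr1 between -0.13 and 0.00062, so these 3 changed sign. Over all genes, 991 to 1912 were called when single libraries were left out and 985 without AAV2-GFP mice 1 and 4, against 1747 with all mice; the cause was not tested, although fewer mice were fitted. With the replicate number as a block 1085 genes passed and AU040320 remained called (adjusted p = 0.02), but same-numbered mice correlated only between -0.0518 and 0.0405, so the numbers do not pair the samples. The number of further listed genes called stayed within 1.5 times its value under all alternatives. Counting error is largest for Met, at 41 to 74 counts per library.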
